A study of Mus musculus with 4 samples.

Results

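Mitochondrially encoded genes are described here through every Pol II ChIP-seq peak that 4 libraries held on mouse mitochondrial DNA (mtDNA), placed on the genes of that molecule. Young EC-K4KO replicate 1 held 7 such peaks and young EC-K4KO replicate 2 held 8, while old WT Cre replicates 1 and 2 held 0 and 0. These 15 peaks are among 389754 in the 4 lists together. The set was selected on measured values, namely that mtDNA peaks occur in the young EC-K4KO lists only, so the difference between groups is the choice itself and was not tested. Of the 10 genes listed for the set (mt-Nd1, mt-Nd2, mt-Cytb, mt-Co1, mt-Co2, mt-Co3, mt-Atp6, mt-Nd4, mt-Nd5 and mt-Nd6), 4 carried an mtDNA peak in both young EC-K4KO libraries (mt-Nd1, mt-Co1, mt-Nd5 and mt-Cytb) and 6 carried none. Beyond the listed genes, both ribosomal RNA genes and the control region carried a peak in both libraries.

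Both groups were mice on the C57BL/6J background that carry the tamoxifen-inducible CDH5-CreERT2 transgene, which is driven by the VE-cadherin promoter and is active in endothelial cells (ECs), with Cre induced at 8 wk of age. WT Cre controls carry the transgene alone (genotype CdH5CRE in the labels) and were old (20 to 23 mo). EC-K4KO mice also carry floxed Klf4 alleles, which Cre deletes in ECs, and were young (4 to 6 mo). Genotype and age therefore differed together and cannot be told apart. Each library came from 200000 flow-sorted brain ECs, which were crosslinked and digested with micrococcal nuclease. The study's methods call the replicates biological, while the labels do not tie them to separate animals, and a p-value measures the spread between these libraries only. Old WT Cre replicates 1 and 2 are called old 1 and old 2, and young EC-K4KO replicates 1 and 2 are called young 1 and young 2. Because a peak list names only what passed the caller's threshold, mtDNA fragments that formed no peak were not measured.

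Mouse mtDNA is a circle of 16299 bp that is present in many copies per cell and is packaged without histones. It encodes 13 subunits of the respiratory chain and of ATP synthase, 2 ribosomal RNAs and 22 transfer RNAs. It is transcribed from promoters in the control region by a dedicated polymerase, POLRMT, with the help of TFAM and TFB2M, and not by RNA Pol II. Nuclear chromosomes hold fragments of mtDNA that were inserted during evolution, here called nuclear copies, and a short read from such a stretch can fit in either place.

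The sequences of some of the places with a peak in both young EC-K4KO libraries follow, read from the mm10 mitochondrial chromosome on its plus strand, 5′ to 3′. Those of mt-Rnr1, mt-Co1 and mt-Nd5 are not shown. Capitals mark the stretch between the summits (the points of highest coverage) of the 2 libraries. The mt-Rnr2 run (chrM:1882-2095) and the mt-Nd1 run (chrM:3274-3439) are the parts under a peak in both libraries, as is the mt-Cytb run (chrM:14543-14811). The control region run (chrM:15617-15916) is a window of 300 bp around its summits.
mt-Rnr2: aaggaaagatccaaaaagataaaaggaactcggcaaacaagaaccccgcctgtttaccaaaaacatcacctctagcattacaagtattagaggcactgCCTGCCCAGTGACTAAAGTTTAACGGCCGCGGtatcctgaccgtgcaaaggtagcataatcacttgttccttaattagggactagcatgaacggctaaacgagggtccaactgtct
mt-Nd1: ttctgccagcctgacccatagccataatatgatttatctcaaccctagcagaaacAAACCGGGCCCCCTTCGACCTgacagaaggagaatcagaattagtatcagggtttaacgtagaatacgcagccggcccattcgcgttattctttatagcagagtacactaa
mt-Cytb: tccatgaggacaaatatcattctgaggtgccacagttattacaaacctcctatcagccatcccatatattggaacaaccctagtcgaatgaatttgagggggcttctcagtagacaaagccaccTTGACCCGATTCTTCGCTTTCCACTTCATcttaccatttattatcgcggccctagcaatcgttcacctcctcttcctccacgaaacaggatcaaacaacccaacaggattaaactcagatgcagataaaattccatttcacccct
control region: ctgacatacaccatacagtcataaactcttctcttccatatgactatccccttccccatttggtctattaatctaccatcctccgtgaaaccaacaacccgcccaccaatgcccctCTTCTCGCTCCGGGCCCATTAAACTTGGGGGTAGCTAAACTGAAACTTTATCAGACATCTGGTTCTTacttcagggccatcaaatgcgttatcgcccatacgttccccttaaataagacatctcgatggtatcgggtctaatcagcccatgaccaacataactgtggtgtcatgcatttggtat

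The mt-Rnr1 gene, which encodes the 12S ribosomal RNA, carried a peak at chrM:149-367 in young 1 and at chrM:83-367 in young 2. Its summit pileup, the number of fragments covering the summit, was 22 (95% exact Poisson interval 13.8 to 33.3) and 56 (42.3 to 72.7). These intervals cover counting error only and treat fragments as independent, although duplicates may be among them. Per 1000000 fragments counted by the peak caller (FPM) this was 0.625 and 2.47, and the fold enrichment over the regional background of the same library was 5.23 and 2.71. Only 52.2% and 53.1% of the window behind that background lay on the molecule. With the background divided by this share, the fold was 3.07 and 1.47. The mt-Rnr1 peak was the lowest of the paired mtDNA peaks in both libraries by pileup.

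The mt-Rnr2 gene, which encodes the 16S ribosomal RNA, carried a peak at chrM:1857-2095 in young 1 and chrM:1882-2103 in young 2, with pileups of 37 and 140 (1.05 and 6.17 FPM) and fold enrichments of 6.57 and 5.06. Young 2 held a further peak at chrM:2349-2806, with 94 fragments at its summit (4.14 FPM) and a fold enrichment of 3.29, which young 1 lacked. This peak lay over 327 bp of mt-Rnr2, all 75 bp of mt-Tl1, a leucine transfer RNA gene, and 56 bp of mt-Nd1. It was the only peak to reach any of the 22 transfer RNA genes.

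Complex I subunits differed among themselves. The mt-Nd1 peak at chrM:3249-3440 in young 1 and chrM:3274-3439 in young 2 had pileups of 40 and 120 (1.14 and 5.29 FPM) and fold enrichments of 6.40 and 3.96. The mt-Nd5 peak lay at chrM:12753-13135 in young 1 and was far wider in young 2, at chrM:12131-13148, with pileups of 31 and 78 (0.880 and 3.44 FPM) and fold enrichments of 3.76 and 2.91. It covered 21.0% of mt-Nd5 in young 1 and 55.8% in young 2. In contrast, mt-Nd2, mt-Nd3, mt-Nd4l, mt-Nd4 and mt-Nd6, which encode other subunits of the same complex, carried no mtDNA peak.

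For complex III, mt-Cytb (cytochrome b) carried a peak at chrM:14543-14818 in young 1 and chrM:14483-14811 in young 2, with pileups of 44 and 101 (1.25 and 4.45 FPM) and fold enrichments of 5.85 and 4.23. For complex IV, the catalytic subunit gene mt-Co1 carried a peak at chrM:5626-6039 and chrM:5628-6069, with pileups of 25 and 104 (0.710 and 4.58 FPM) and fold enrichments of 3.74 and 3.34. The other complex IV genes, mt-Co2 and mt-Co3, and the ATP synthase genes mt-Atp6 and mt-Atp8 carried no mtDNA peak.

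The control region, which holds the promoters and the heavy-strand origin, carried a peak at chrM:15623-16025 in young 1 and chrM:15627-16030 in young 2. Its pileups were 47 (interval 34.5 to 62.5) and 139 (117 to 164), or 1.33 and 6.12 FPM. Its fold enrichments of 6.60 and 6.19, as called, were the highest of the mtDNA peaks in each library. With the background divided by the share of its window on the molecule, they were 3.87 and 3.51 and no longer the highest. The peak lay between the annotated extended termination-associated sequences (the last ends at base 15558) and conserved sequence block 1 (bases 16035 to 16058), without touching either.

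**Figure D1:**
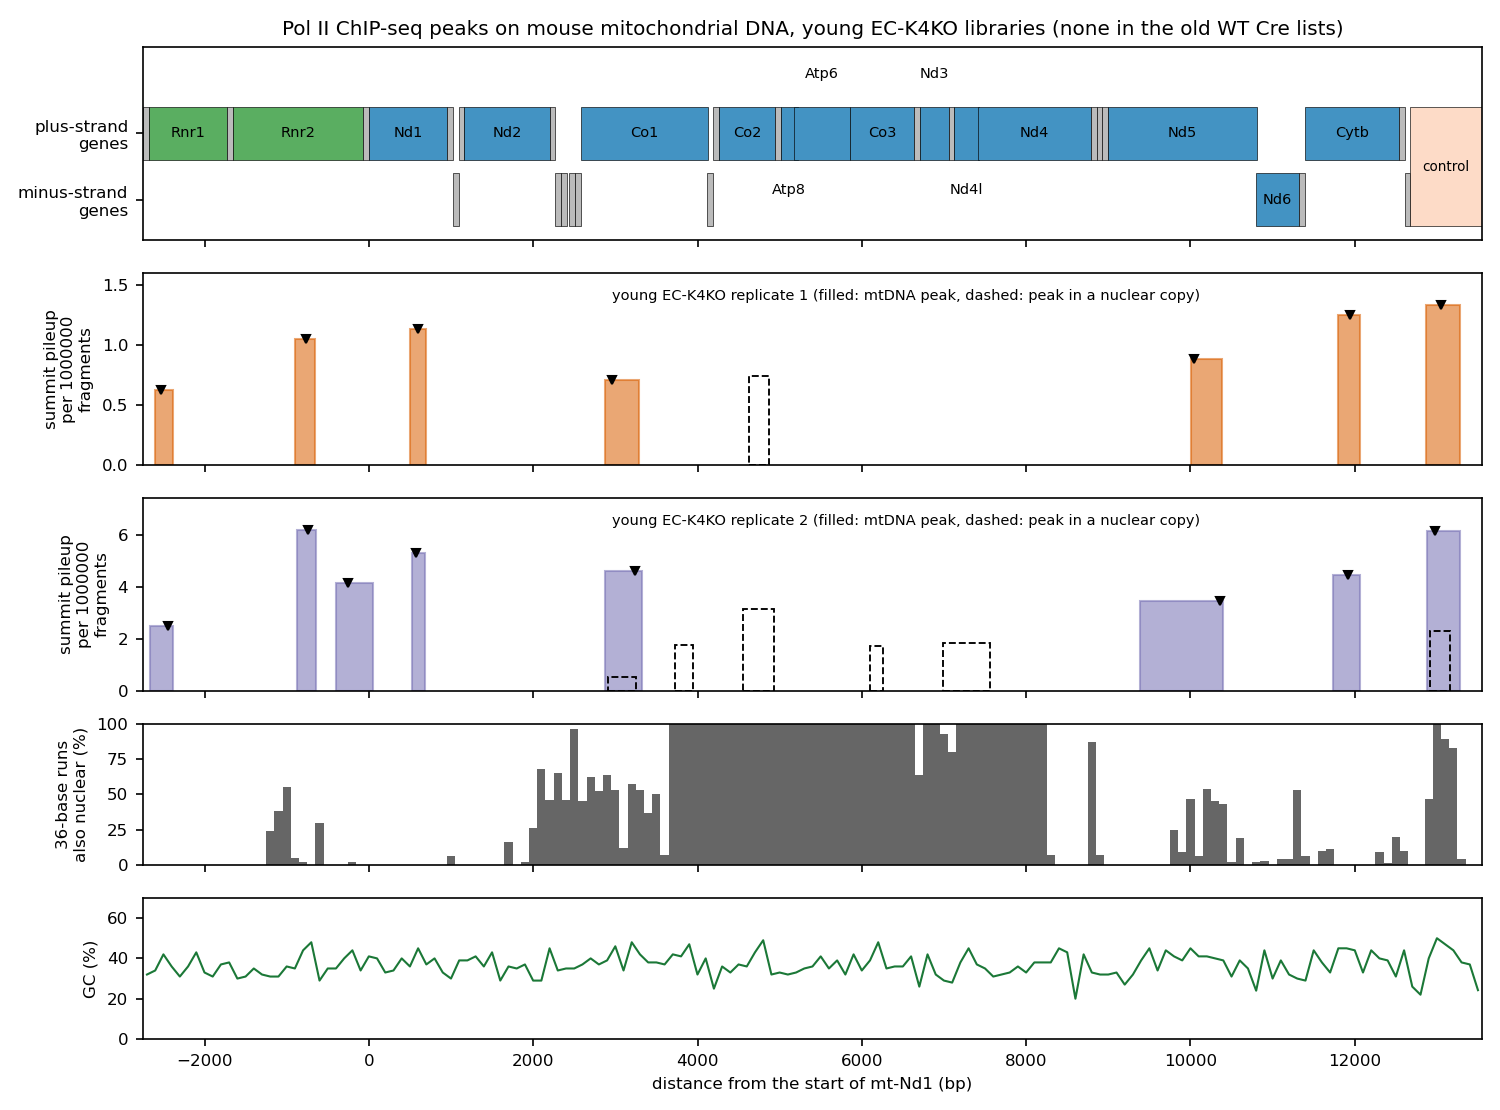
Genes of mouse mtDNA by strand, mtDNA peaks of the young EC-K4KO libraries (filled boxes, height is the summit pileup per 1000000 fragments, triangles are summits), peaks in nuclear copies drawn at their mtDNA counterpart (dashed boxes), the share of 36-base runs that also occur on a nuclear chromosome and the GC content in bins of 100 bp, all against distance from the start of mt-Nd1. The vertical scales of the libraries differ, 7 places hold a filled peak in both libraries, young EC-K4KO replicate 2 holds 1 more, and the long stretch without a filled peak is where 78.6% of runs are also nuclear.

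All 7 mtDNA peaks of young 1 overlapped an mtDNA peak of young 2, whereas 29.3% of the young 1 peaks on nuclear chromosomes (10330 of 35263) overlapped a young 2 peak by at least 1 bp. The peaks of young 1 shared 97.0% of their 2126 bases with those of young 2, and the peaks of young 2 shared 62.0% of their 3324 bases with those of young 1. Of the 14 peak ends in the 7 pairs, 7 lay within 10 bp of each other, against 15.2% of 20832 ends in overlapping nuclear pairs. Both mt-Rnr1 peaks ended at base 367, the mt-Nd1 peaks ended 1 bp apart, and the mt-Co1 and control region peaks began 2 and 4 bp apart. Summits were less close, with a median distance of 66 bp in the mtDNA pairs and 74 bp in the nuclear pairs. These shares are descriptions, since neighbouring mtDNA peaks lie on the same molecule and mtDNA coverage differed from nuclear coverage.

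Pileup in FPM was higher in young 2 at all 7 places, by 3.56 times at mt-Cytb to 6.45 times at mt-Co1, with a median of 4.59 times. Over 10416 overlapping nuclear pairs the same ratio had a median of 1.64, and 2.78% of them exceeded the lowest mtDNA ratio. Within a library the highest paired peak exceeded the lowest by 2.14 times in young 1 and by 2.50 times in young 2, which is less than the gap between the libraries. By fold enrichment this did not hold, since young 1 exceeded young 2 by 1.07 to 1.93 times per place, while places differed by 1.77 times within young 1 and by 2.29 times within young 2. The median over mtDNA peaks was 1.05 FPM in young 1 and 4.51 in young 2. No such value exists for the old WT Cre lists, which held no mtDNA peak.

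When each pileup was divided by its library's median over the 7 places, mt-Rnr1 stood at 0.595 and 0.538 and mt-Nd5 at 0.838 and 0.750. The value was 1.08 and 1.15 at mt-Nd1 and 1.27 and 1.34 at the control region. The order of the places differed between the libraries, with mt-Co1 at 0.676 and 1.00, mt-Cytb at 1.19 and 0.971, and mt-Rnr2 at 1.00 and 1.35. The control region was highest in young 1, and mt-Rnr2 (140 fragments, against 139 at the control region) in young 2. In young 1 the Poisson interval at mt-Co1 (25 fragments, 16.2 to 36.9) included the pileups of its neighbours in that order, mt-Rnr1 (22) and mt-Nd5 (31). In young 2 the interval at mt-Rnr2 (118 to 165) included the control region (139) and mt-Nd1 (120). Intervals of neighbours overlapped, also between mt-Rnr1 (56 fragments, 42.3 to 72.7) and mt-Nd5 (78 fragments, 61.7 to 97.3) in young 2, while those of mt-Rnr1 and the control region did not overlap in either library.

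**Figure D2:**
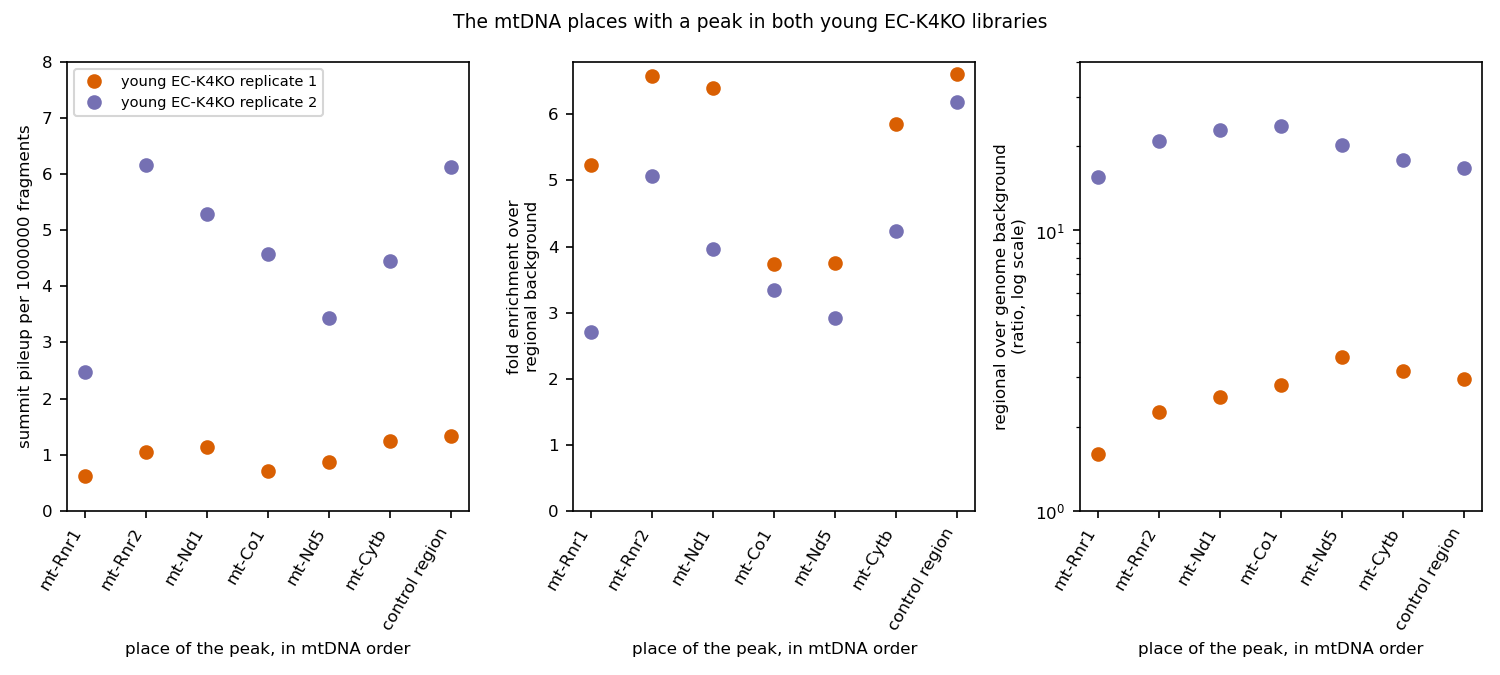
Summit pileup per 1000000 fragments, fold enrichment over the regional background, and the ratio of regional to genome background (log scale) at the 7 mtDNA places with a peak in both young EC-K4KO libraries, 1 point per library. Pileup in FPM and regional background are higher in young 2 at every place, and fold enrichment is higher in young 1 at every place.

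Fold enrichment ordered the replicates the other way, with medians of 5.85 in young 1 and 3.65 in young 2. The caller's regional background, recovered from pileup and fold enrichment, was 1.60 to 3.54 times the genome background at the mtDNA summits of young 1 and 15.5 to 23.6 times in young 2. The median ratio over nuclear peaks was 1.01 and 1.19. In young 2, 99.9% of nuclear peaks had a lower ratio than the lowest mtDNA peak, and in young 1 the share was 84.2%. Coverage averaged over these windows of mtDNA was thus above the genome background in both young EC-K4KO libraries, and the peaks are rises on top of it. At the mt-Co1 summit, where the 10000 bp window lies wholly on the molecule, the background corresponded to about 372 fragments in young 1 and 2018 in young 2, or 10.6 and 88.9 FPM.

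The mtDNA peaks were 192 to 414 bp wide in young 1 and 166 to 1018 bp in young 2, where the median of all peaks was 194 and 185 bp, and their −log10 q ran from 5.53 to 21.3 and from 8.26 to 59.1. By pileup, they stood above 92.8 to 98.0% of the list in young 1 and above 99.7 to 99.9% in young 2. By fold enrichment they stood above 22.95 to 97.0% and above 0.194 to 78.8%, so that the mt-Rnr1 and mt-Nd5 peaks of young 2 were among the lowest of its list. Fold enrichment near the numbered ends of the molecule rests on a window that runs off the linear map of a circular molecule. With the background divided by the share of the window on the molecule, an approximation chosen after seeing the data, the medians were 3.87 and 3.08, and the highest fold moved from the control region to mt-Nd1 in young 1 (5.48) and to mt-Rnr2 in young 2 (3.59).

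**Figure D3:**
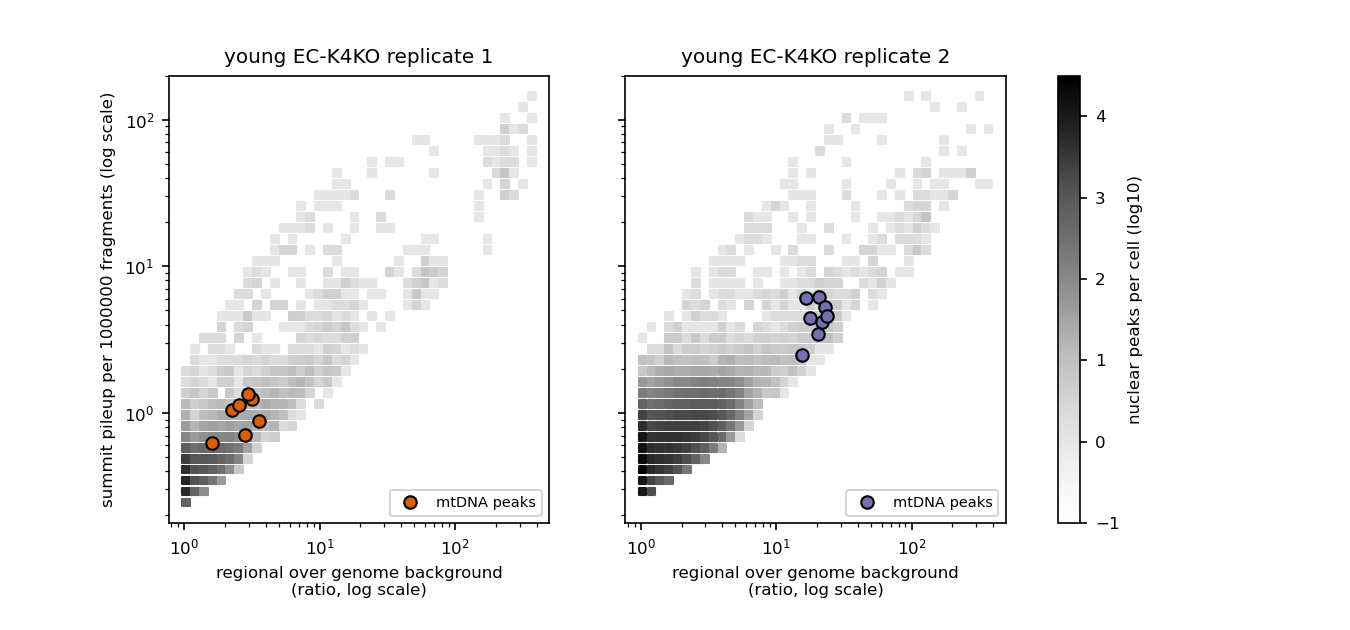
Summit pileup per 1000000 fragments against the ratio of regional to genome background, both on log scales, for the mtDNA peaks (coloured points) and all other peaks of each young EC-K4KO library (grey squares, darker where more peaks fall). The mtDNA peaks sit at ratios of 1.60 to 3.54 in young 1 and 15.5 to 23.6 in young 2, inside the range of the nuclear peaks.

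The caller counted 65734178 fragments in old 1, 27455452 in old 2, 35227929 in young 1 and 22705175 in young 2. The smallest pileup of any called peak was 13, 8, 9 and 7 fragments in the same order. The tallest summit of each library, with 393164 to 9576110 fragments, is part of the total behind its FPM values. All 4 lists kept peaks on unplaced contigs (253 to 486). Whether depth, carry-over of mtDNA or filtering of its reads differed in a way that bears on the lists was not tested.

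A peak covered 13.0% of mtDNA bases in young 1 and 20.4% in young 2, against 0.304% and 2.01% of nuclear bases. With 4 of 13 protein-coding mtDNA genes under a peak, the share was near or below that of nuclear protein-coding genes, of which 31.0% in young 1 and 83.0% in young 2 had a gene body overlapped by a peak. Nuclear genes are far longer, so the shares are set side by side without a test. Each of the 4 genes was only partly covered, mt-Nd1 to 20.1% and 23.2%, mt-Co1 to 26.8% and 28.6% and mt-Cytb to 24.1% and 28.8% in young 1 and young 2.

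The peaks lay in parts of mtDNA with more G and C. GC content was 43.6% under the peaks of both libraries, 35.3% outside the peaks of both and 36.7% over the molecule, and all 15 peaks exceeded that last value. GC content was not used to choose the set, but its part in the pileups was not tested.

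Of the 9 protein-coding genes without an mtDNA peak, 7 shared most of their sequence with a nuclear chromosome. Of all 36-base runs of mtDNA, 39.0% also occur on a nuclear chromosome (1 to 19, X or Y), and the share was 21.7% among runs that start under a peak and 43.6% among the rest. Every run of mt-Co2, mt-Atp8, mt-Atp6, mt-Co3 and mt-Nd4l was also nuclear, as were 95.4% in mt-Nd3, 63.3% in mt-Nd4 and 60.6% in mt-Co1. None was in mt-Nd1 or mt-Rnr1, and the share was 4.55% in mt-Cytb, 9.86% in mt-Rnr2 and 13.7% in mt-Nd5. The pattern had exceptions, since mt-Nd2 (11.2%) and mt-Nd6 (6.94%) had few shared runs and no peak. In the other direction mt-Co1 (60.6%) had a peak in both libraries, with 44.0% and 46.2% shared runs under it, and the control region peaks had 80.1% and 80.0% shared runs. The longest stretch without a peak in either library, chrM:6070-12130, spanned 6061 bp with 78.6% shared runs. Where a run is shared, an aligner cannot place a read of that length by its sequence, and how such reads were placed in these libraries was not tested.

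Exact runs of at least 36 bases, joined within 1000 bp, gave 25 nuclear copies that span 14270 bp in all. The longest lies at chr1:24611535-24616184 and matches chrM:6394-11042, from within mt-Co1 to within mt-Nd4, on the minus strand, with 4648 identical bases, 1 mismatch (at mtDNA base 9461) and 1 gap (99.957% identity). It carried no peak in either old WT Cre library, 1 in young 1 and 4 in young 2. The peak common to both young EC-K4KO libraries lay over the mt-Co2 sequence, at chr1:24614954-24615201 in young 1, with 26 fragments at its summit (0.738 FPM) and a fold enrichment of 8.61. In young 2 it lay at chr1:24614891-24615272, with 71 fragments (3.13 FPM) and a fold enrichment of 7.70. The bases under the young 1 peak are shown because they are the same, base for base, as chrM:7377-7624 in mt-Co2, so that no read from within them tells the places apart.
mt-Co2 sequence at the nuclear copy: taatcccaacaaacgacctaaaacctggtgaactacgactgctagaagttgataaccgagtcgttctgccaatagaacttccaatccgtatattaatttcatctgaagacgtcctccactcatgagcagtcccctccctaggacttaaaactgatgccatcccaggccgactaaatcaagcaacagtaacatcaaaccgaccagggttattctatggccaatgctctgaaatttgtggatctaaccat

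The other peaks in this copy, all in young 2, lay over the sequence of mt-Co1 (40 fragments, fold enrichment 4.33), mt-Co3 (39 fragments, 4.30) and mt-Nd3 to mt-Nd4, with the summit in mt-Nd4l (42 fragments, 4.58). Thus 3 further listed members, mt-Co2, mt-Co3 and mt-Nd4, had sequence under a peak that was placed on chromosome 1, and mt-Nd2, mt-Atp6 and mt-Nd6 had neither. The regional background at these peaks of young 2 was 6.43 to 6.54 times the genome background, against 1.01 times at the young 1 peak.

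Of the other copies, chr12:97061428-97061792 matches chrM:15675-16039 of the control region with 364 identical bases and 1 mismatch. In young 2 it carried a peak of 52 fragments (2.29 FPM) with a fold enrichment of 22.6, higher than that of any mtDNA peak, over a regional background of 1.04 times that of the genome. The chromosome 2 copy, with 2336 matched bases between mtDNA bases 4441 and 7699, carried a peak of 12 fragments over mt-Co1 sequence in the same library. The other 22 copies carried no peak in any library.

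Bases under a peak in nuclear copies were 0 and 0 in old 1 and old 2 and 248 and 1914 in young 1 and young 2. The young EC-K4KO values differed from each other by more than the lower of them did from 0. Since the copies with most of these bases are nearly identical to mtDNA, this contrast is not independent of the choice of the set and is given as a description.

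Nuclear genes that serve mtDNA are transcribed by Pol II, and 46 of them were examined for a peak within 1500 bp of a transcription start site (TSS). The peaks of a gene in different libraries need not overlap each other. Such a peak stood at 15 genes (32.6%) in old 1, 16 (34.8%) in old 2, 7 (15.2%) in young 1 and 38 (82.6%) in young 2. Among 21938 nuclear protein-coding genes the shares were 25.6%, 24.5%, 10.6% and 67.5% in the same order. The list moved with the number of genes each library called, and the share of its 46 genes lay above that of all genes in each of the 4, which did not hold for each of its groups of genes. At q of at most 1e-05 the counts were 10, 9, 3 and 36, against 15.1%, 13.4%, 3.31% and 57.1% of all genes at that q. With lists of equal length they were 9, 14, 7 and 25, against 11.8%, 22.6%, 10.6% and 27.7% of all genes. The difference between groups, 7 genes, was smaller than the spread inside the young EC-K4KO group (exact permutation test, two-sided, p = 1.0), and without young 2, which leaves 1 library in that group, it was -8.5 genes.

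Among the transcription factors of mtDNA, Polrmt, the mitochondrial RNA polymerase, had a peak in young 2 alone (fold enrichment 4.40). Tfam, which packages mtDNA and binds its promoters, had a peak in old 2 (5.49) and young 2 (6.58). Tfb2m, which melts the promoter for POLRMT, had a peak in old 2 (5.22) and in young 1 (4.14) and young 2 (8.02). Tefm, the elongation factor, had none in any library. In all, 1, 6, 1 and 8 of the 10 transcription genes had a peak in old 1, old 2, young 1 and young 2 (10%, 60%, 10% and 80.0%). Of all genes, 25.6%, 24.5%, 10.6% and 67.5% had one, so that the share in young 1 was near that of all genes.

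Of the 12 replication and upkeep genes, 5, 3, 3 and 9 had a peak in that order (41.7%, 25.0%, 25.0% and 75.0%). Against 25.6%, 24.5%, 10.6% and 67.5% of all genes, the share was near that of all genes in old 2 and young 2. Polg, the catalytic subunit of the mtDNA polymerase, had a peak in old 1 (2.77) and young 2 (4.93), with summits 1667 and 1137 bp from the TSS. Twnk, the helicase, had none. Ssbp1, which binds single-stranded mtDNA, had a peak in old 1 (4.70) and young 1 (5.10) and young 2 (9.14). Of the 46 genes, Polg2 (the accessory polymerase subunit), Rrm2b (a ribonucleotide reductase subunit) and Pnpt1 (an RNA-processing nuclease) had a peak in all 4 libraries. None in any library was found at 6, Tefm, Mterf2, Twnk, Lig3, Fastkd2 and Pprc1. Among 21938 nuclear protein-coding genes, 487 had a peak in all 4 libraries and 5577 had none in any. The Pnpt1 summits lay 1097 and 1068 bp from the TSS in old 1 and young 1, and 64 and 148 bp in old 2 and young 2.

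Of the 16 genes for mitochondrial RNA processing and stability, 6, 3, 2 and 15 had a peak in that order (37.5%, 18.8%, 12.5% and 93.8%). Against 25.6%, 24.5%, 10.6% and 67.5% of all genes, the share was near that of all genes in young 1. Lrpprc, which stabilises mitochondrial mRNAs, had a peak in old 1 (4.09) and young 2 (9.06), at different places, with summits 425 and 1523 bp from the TSS. Of the 8 nuclear regulators, 3, 4, 1 and 6 had a peak (37.5%, 50%, 12.5% and 75.0%), near the share of all genes in young 1 and young 2 (10.6% and 67.5%). In old 1 and old 2 the share of all genes was 25.6% and 24.5%. Nrf1 had a peak in old 2 (5.41) and young 2 (5.96), and Gabpa, an ETS factor, in old 1 (5.63) and old 2 (4.85) and young 2 (6.61). Ppargc1a, a coactivator of mitochondrial biogenesis, had a peak in old 1 alone (4.13).

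**Figure D4:**
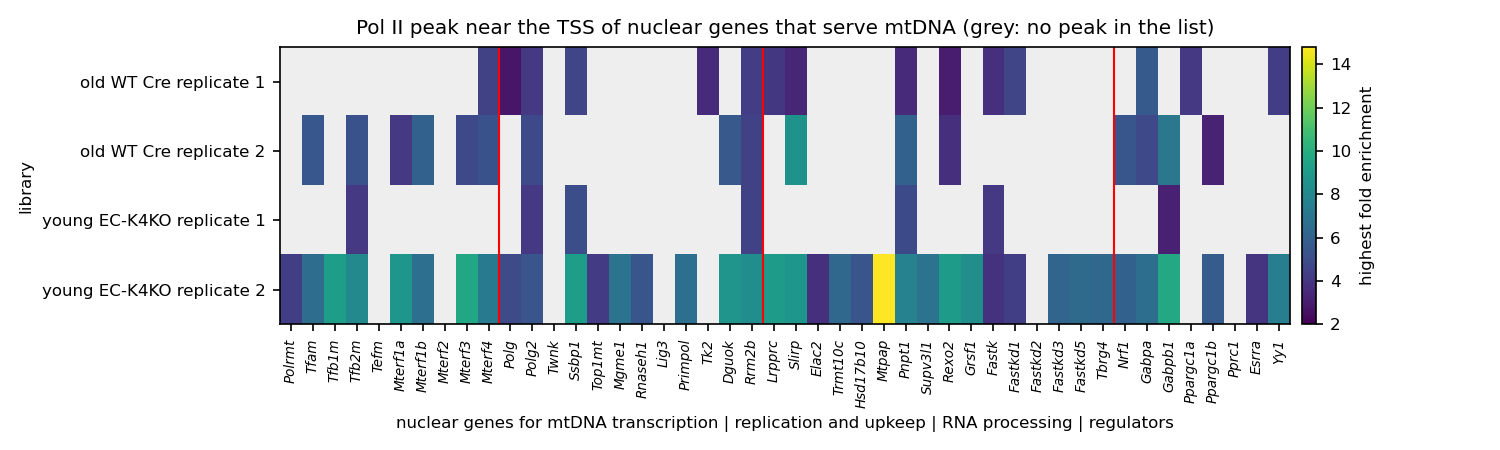
Highest fold enrichment of a Pol II peak within 1500 bp of a TSS for 46 nuclear genes that serve mtDNA (columns, grouped by role with red lines between groups) in each library (lines of the grid), with grey where the list holds no such peak. Coloured cells number 15, 16, 7 and 38 from the top library to the bottom.

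The promoters of Tfam and Tfb2m are shown as 1 example of each core searched, among several genes with a peak within 1500 bp of their TSS in a library of each group, and they were chosen after their sequences were seen. They are RefSeq promoters (GRCm38.p6, 250 bases before to 50 after the start, given 5′ to 3′ along the gene), at chr10:71237995-71238294 and chr1:179546227-179546526, both on the minus strand. Capitals mark an ETS core (CCGGAAGT) in Tfam and an NRF1 core (CGCATGCG) in Tfb2m, searched on both strands.
Tfam: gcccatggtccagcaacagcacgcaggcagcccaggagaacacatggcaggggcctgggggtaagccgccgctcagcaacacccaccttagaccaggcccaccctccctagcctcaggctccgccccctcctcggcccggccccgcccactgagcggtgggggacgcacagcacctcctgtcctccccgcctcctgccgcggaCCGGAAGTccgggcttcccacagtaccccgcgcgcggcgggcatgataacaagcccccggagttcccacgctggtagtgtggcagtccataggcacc
Tfb2m: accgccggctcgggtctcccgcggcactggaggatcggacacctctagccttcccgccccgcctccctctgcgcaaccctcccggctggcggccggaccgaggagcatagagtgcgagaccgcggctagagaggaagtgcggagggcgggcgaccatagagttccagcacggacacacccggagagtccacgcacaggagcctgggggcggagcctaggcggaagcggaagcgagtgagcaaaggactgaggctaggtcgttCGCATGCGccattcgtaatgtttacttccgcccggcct

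The ETS core occurred in a promoter of 8 of the 40 listed genes that matched a RefSeq promoter (20%), of 4.31% of all 27025 genes and in 3.89% of all 32851 promoters. The NRF1 core occurred in a promoter of 2 of the 40 (5%), Gabpa and Tfb2m, of 2.07% of all genes and in 1.87% of all promoters. The 2 cores do not overlap in their letters, and a match is a description of the sequence only.

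Endothelial identity was read from the same window around a TSS. Of 12 endothelial markers, 5, 6, 1 and 7 had a peak in old 1, old 2, young 1 and young 2 (41.7%, 50%, 8.33% and 58.3%). Of all genes, 25.6%, 24.5%, 10.6% and 67.5% had one in the same order. The markers stood above that share in old 1 and old 2, and near or below it in young 1 and young 2. Ocln had a peak in all 4 libraries, as did 487 of 21938 nuclear protein-coding genes. Pecam1, Tek, Tie1 and Esam had none in any, as did 5577 of all those genes. Of 22 markers of other brain cells, 5 (22.7%), 2 (9.09%), 2 (9.09%) and 15 (68.2%) had a peak in the same order. This is below the share of all genes in old 2 and near it in old 1, young 1 and young 2. In young 2 these were 3 of 5 for pericytes and smooth muscle, 4 of 5 for microglia, 2 of 4 for astrocytes, 3 of 4 for neurons and 3 of 4 for oligodendrocytes. In old 1, old 2 and young 1 these counts were 1, 1 and 1, then 2, 0 and 0, then 2, 0 and 0, then 0, 1 and 0, and 0, 0 and 1. The part of other cells in the mtDNA peaks was not tested.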

How the data were processed

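RNA Pol II ChIP-seq was analysed in 4 libraries from sorted brain ECs, 2 from old WT Cre and 2 from young EC-K4KO mice. According to the paper's methods, the authors trimmed reads, mapped them with Bowtie2 (mm10), took out duplicates and called peaks. Per the file headers, MACS 2.2.7.1 was run on paired-end fragments in each library without a control library, at q of 0.01. It kept all duplicates in its input, with a genome size of 2652783500 bp and a regional window of 10000 bp. Whether duplicates had been taken out of that input was not tested, so pileups, their intervals and fragment totals may count duplicates. The authors deposited, for each peak, its pileup (a coverage signal in fragments), its fold enrichment (a ratio to the regional background), −log10 of its p-value, −log10 of its q-value and the score of the narrow peak list. These were not normalized between libraries, and depth is the caller's fragment count. In all 4 libraries the narrow peak and summit lists held the same peaks as the table used.

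Pileups were scaled to 1000000 fragments with the total of their own library. The regional background was solved from pileup and fold enrichment with the caller's pseudocount of 1. Genes were taken from GENCODE M21 (basic), and the control region and promoters from RefSeq. Nuclear copies were found by exact runs of 36 bases. The groups were compared by exact permutation of libraries for promoter peaks, in Python 3.11.15 (Biopython 1.88, scipy 1.17.1, pandas 2.3.3, numpy 2.4.6). The steps were tested on simulated data. The alternatives tried were a lower q, a minimum of fold enrichment, other coverage, depth and window settings, runs of 24 bases, lists of equal length and leaving out each library. The named nuclear genes are Polrmt, Tfam, Tfb2m, Tefm, Polg, Twnk, Ssbp1, Lrpprc, Nrf1, Gabpa and Ppargc1a, the rest being counted, and genes in every or no library were named after their values were seen. The members and lists were chosen with earlier results of these data known.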

Additional observations from a re-analysis of the deposited data

How the results depend on the processing

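The labels give both groups the numbers 1 and 2 but do not say that a number marks a shared batch or litter. With the replicate number as a block, added after seeing the data, the promoter list differed between groups by -8 and 22 genes, a mean of 7 as without the block (exact sign-flip permutation p = 1.0, where 2 pairs allow no p below 0.5). Leaving out an old library could not change the mtDNA values, which come from the young libraries alone, and leaving out a young library gives the value of the other, so these say nothing of stability. At a fold enrichment of at least 4 the mean number of mtDNA peaks per young EC-K4KO library was 4, against 7.5 as deposited. With at least 50% of a gene under a peak in both libraries, 0 mtDNA protein-coding genes remained, against 4. Divided by the median pileup of all peaks in place of fragments, the mean of the medians of the mtDNA peaks was 5.26, a ratio in another unit than the 2.78 FPM. Leaving out each library gave 7 to 8 mtDNA peaks, 13.0 to 20.4% of mtDNA bases, 1.05 to 4.51 FPM, 248 to 1914 bases in nuclear copies and -8.5 to 22.5 genes with a promoter peak (difference between groups), the last changing direction without young EC-K4KO replicate 2. The circular background, added after seeing the data, moved the median fold enrichment from 5.85 to 3.87 and from 3.65 to 3.08. The cause of these changes was not tested beyond the construction of each alternative. With 2 libraries a group, no p can fall below 0.33, and mtDNA coverage that formed no peak was not measured, so that an old WT Cre level could not be given.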
